A study of Coturnix japonica with 15 samples.

Results

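Among 15 liver libraries of Japanese quail (Coturnix japonica) embryos, 4 stood apart by low expression of chromosome Z genes, and these 4 low-Z libraries are described here against the other 11, the high-Z libraries. The low-Z libraries were chosen by their own Z expression, as those with the lowest mean log2 CPM (counts relative to TMM-scaled library totals, prior count 2) over the 645 expressed genes that the gene table of the Coturnix japonica 2.1 assembly places on chromosome Z. They were solvent replicate 3, 3.33 µg/g replicates 3 and 4, and 33.3 µg/g replicate 1. The high-Z libraries were the other 4 of solvent, 3 at 3.33 µg/g and 4 at 33.3 µg/g.

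RNA came from the left lobe of the liver at embryonic day 9. Eggs received 10 µl of solution in the air cell before incubation, holding either ethinylestradiol, a synthetic oestrogen, at 3.33 or 33.3 µg per g of egg, or the DMSO solvent alone, with 5 libraries per treatment. The labels give no sex and do not say that each library came from a separate embryo, so p-values measure the spread between these libraries.

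In birds, males carry a pair of Z chromosomes and females a Z and a W. Chromosome-wide dosage compensation is incomplete in birds: in chicken, many but not all Z genes are expressed at a lower level in females, and a group of dosage-sensitive genes has kept a copy on the W. The low-Z class is the one that would hold ZW females and the high-Z class ZZ males. The gene table places 0 genes on W, so female-specific W expression was not analysed here, and the classes are called by their Z expression.

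The mean Z level was 3.13 in solvent replicate 3, 3.16 in 3.33 µg/g replicate 3, 3.08 in 3.33 µg/g replicate 4 and 3.11 in 33.3 µg/g replicate 1, against 3.43 to 3.61 in the high-Z libraries (log2 CPM). The classes did not overlap: 0.264 separated the highest low-Z library, at 3.16, from the lowest high-Z library, at 3.43. The mean of autosomal genes was 3.65 to 3.71 in the low-Z libraries and 3.61 to 3.72 in the high-Z libraries, so on the autosomes the classes overlapped. Since the Z level chose the libraries, the Z values are given as a description, with no test.

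**Figure D1:**
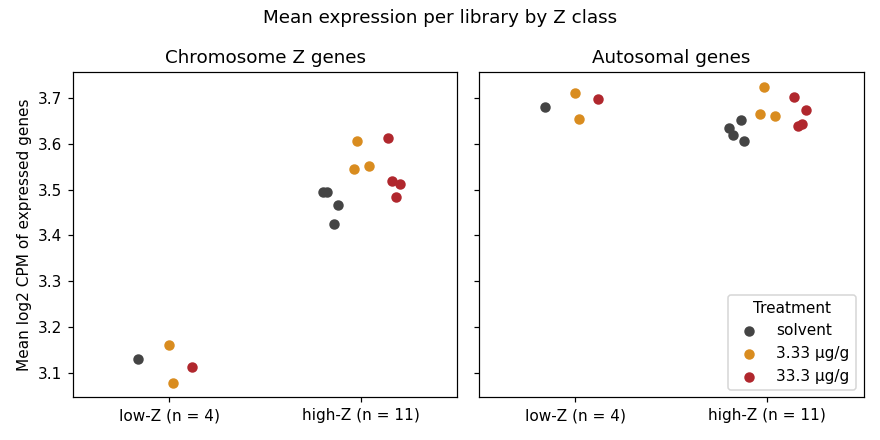
Mean log2 CPM of expressed genes on chromosome Z (left panel) and on the autosomes (right panel) in each library, each point 1 library coloured by treatment, low-Z libraries left of high-Z libraries. The 4 low-Z libraries sit between 3.08 and 3.16 on chromosome Z and the 11 high-Z libraries between 3.43 and 3.61, while the autosomal means overlap.

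Total estimated counts ran from 21715263 to 54591387 over the 15 libraries, with a median of 28086496. No low-Z library was above that median. At 3.33 µg/g the low-Z libraries had 22543259 and 22075422 counts, against 36682643 to 37046518 in high-Z libraries. Solvent replicate 3 had 21726180, against 22534964 to 32140105 in high-Z solvent libraries. At 33.3 µg/g, replicate 1 had 28086496, inside the high-Z range. Albumin, the main secreted protein of hepatocytes, took 4.85% of counts in 3.33 µg/g replicate 4 and 5.87% in 33.3 µg/g replicate 1, both low-Z, against 9.71% to 13.3% in the other 13 libraries. Summed CPM of the 14 tested markers of a hepatocyte list of 18 genes was 68956 to 197554 in low-Z libraries and 140230 to 186953 in high-Z libraries, with 3 of the 4 low-Z libraries (all but solvent replicate 3) below every high-Z library. Counts of non-Z genes and list medians are also given without the pair of libraries with little albumin. In bulk liver, fewer cells of a type and less RNA per cell cannot be told apart.

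The low-Z libraries had less RNA from most Z genes, but rarely as little as a single gene copy alone would give, which is -1 on the log2 scale. In a model with treatment as a covariate, the median fitted log2 fold change (low-Z over high-Z) of 649 tested Z genes was -0.41, a ratio of 0.752, with quartiles of -0.75 and -0.12. Of these genes 539 (83.1%) lay below 0 and 58 (8.94%) below -1, while 348 lay within 0.5 of 0. For 12844 autosomal genes the median was 0.03, with quartiles of -0.12 and 0.16, and 1.05% lay below -1. In 172 Z genes (26.5%) every low-Z library was below every high-Z library, and in 4 every low-Z library was above. Over the 14037 genes not placed on Z, which include unplaced genes and unmatched IDs, these shares were 0.342% and 0.484%. On the autosomes alone the share below was 0.311%. Nothing is read from the Z count, because Z expression defined the classes.

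**Figure D2:**
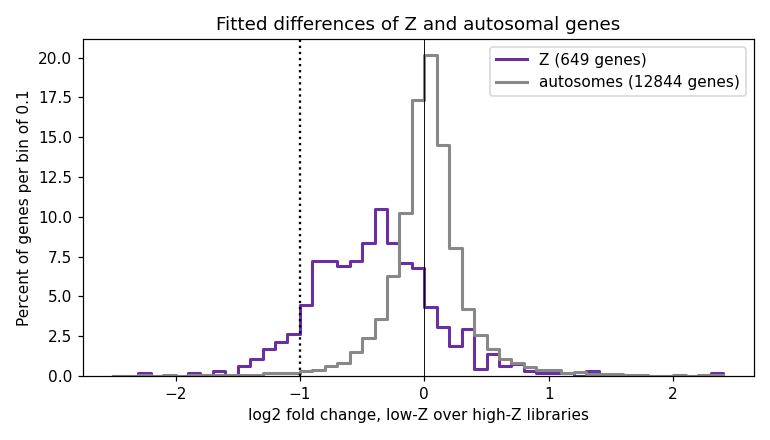
Percent of genes per bin of 0.1 by fitted log2 fold change, low-Z over high-Z libraries, for 649 Z genes (purple) and 12844 autosomal genes (grey). The dotted line marks -1. The Z distribution is broad, and its median of -0.41 lies between that line and the autosomal peak near 0.

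Each low-Z library had the shift within its own treatment, which its choice by low Z expression all but fixed in advance. Set against the high-Z libraries of the same treatment, the median difference of Z genes was -0.31 in solvent replicate 3, -0.42 in 3.33 µg/g replicate 3, -0.45 in 3.33 µg/g replicate 4 and -0.45 in 33.3 µg/g replicate 1 (log2). The autosomal medians of the same libraries were 0.02 to 0.04. By expression level, the Z median was -0.33, -0.44, -0.39 and -0.46 over 4 classes of genes cut at the quartiles of mean level, low to high. Protein-coding Z genes (609) had a median of -0.39 and Z-placed lncRNAs (38) one of -0.67.

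The deviations of single Z genes recurred between low-Z libraries of different treatments, which share no library. Over the 309 Z genes in the upper part of the expression range, Pearson correlations across genes were 0.65 for solvent replicate 3 with 3.33 µg/g replicate 3, 0.40 for solvent replicate 3 with 3.33 µg/g replicate 4, and 0.50 for solvent replicate 3 with 33.3 µg/g replicate 1. Those of 33.3 µg/g replicate 1 with 3.33 µg/g replicates 3 and 4 were 0.69 and 0.68. For 6632 autosomal genes the same 5 values were 0.09, -0.06, 0.01, 0.35 and 0.52. The autosomal profile of solvent replicate 3 thus had little in common with that of the ethinylestradiol-treated low-Z libraries. The highest autosomal value, 0.52, joins 33.3 µg/g replicate 1 with 3.33 µg/g replicate 4, the pair of libraries with little albumin. For 3.33 µg/g replicates 3 and 4, of the same treatment, no correlation was computed. Genes are not independent replicates. The libraries were also chosen by their Z expression and not by their autosomal expression. The Z and autosomal correlations are therefore descriptions, and no test of a difference between them.

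By gene order along chromosome Z, the medians of consecutive blocks of 25 tested genes ran from -0.69, in the block from ISCA1 to SYK, to -0.12, in the block from LOC107306682 to CCDC112. Every one of the 26 blocks had a median below 0. The block from VLDLR to LOC107306126, just after DMRT1, had a median of -0.18. On other chromosomes the medians ran from -0.19 (linkage group LGE64, 22 genes) upwards, and the 13 mitochondrial genes had a median of -0.27 with 13 of 13 below 0 and 0 called.

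**Figure D3:**
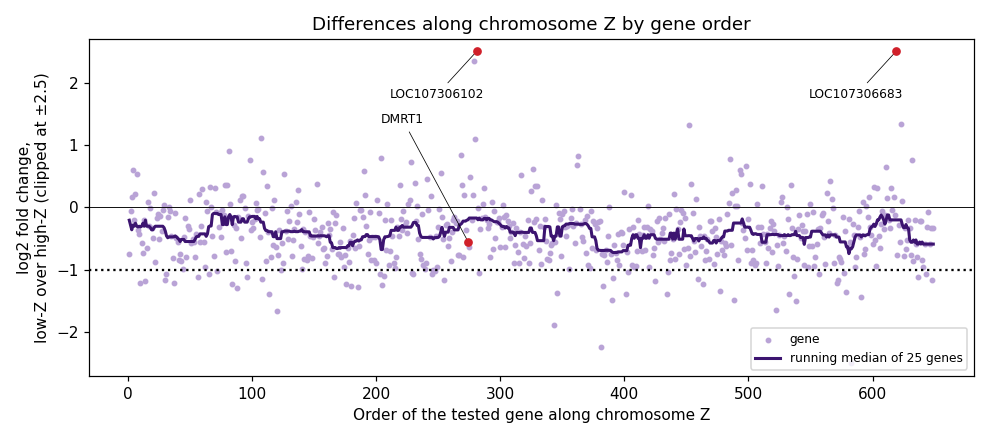
Fitted log2 fold change (low-Z over high-Z) of each tested Z gene against its order along chromosome Z, clipped at 2.5 either side, with the running median of 25 genes as a line. The median stays below 0 along the chromosome; DMRT1 and the lncRNAs LOC107306102 and LOC107306683 are marked.

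Genes that have kept a W copy in chicken, where that copy may make up for the single Z, varied widely. Of a list of 27 such genes, 24 were tested, with a median log2 fold change of -0.25 for the Z copy and 23 below 0. CHD1, a chromatin remodeller whose Z and W copies are used to sex birds, had 33.4, 30.2, 33.0 and 31.7 CPM in solvent replicate 3, 3.33 µg/g replicates 3 and 4 and 33.3 µg/g replicate 1 (the order of all 4-value series below), against 31.6 to 35.0 CPM (median 32.7) in high-Z libraries. The classes overlapped at CHD1 (log2 fold change -0.03, SE 0.05). ATP5F1A, the alpha subunit of mitochondrial ATP synthase, had 1666, 1179, 1064 and 1159 CPM, against 2550 to 3253 CPM (median 3006) in high-Z libraries. Every low-Z library was below every high-Z library at ATP5F1A (-1.21, SE 0.11).

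HINT1, a nucleotide hydrolase with an avian W relative, had 27.4, 32.4, 33.2 and 33.9 CPM, against 53.8 to 68.2 CPM (median 59.5) in high-Z libraries (-0.94, SE 0.07). The 4 low-Z values of HINT1 lay close together and apart from all others. SPIN1 (-0.72, SE 0.09), a reader of histone methylation, and TXNL1 (-0.73, SE 0.08), a thioredoxin-like protein, were separated in the same way. SMAD2 (-0.04, SE 0.08), a mediator of TGF-beta signalling, VCP (-0.08, SE 0.08), an ATPase that extracts proteins for degradation, MIER3 (-0.05, SE 0.13) and SUB1 (0.08, SE 0.06), a transcriptional coactivator, overlapped between the classes. Whether reads of a W copy were counted at the Z entry was not tested.

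Liver genes known to lie on Z in chicken ran from below the single-copy value to above parity. Of 34 listed, 28 were tested here, with a median of -0.48, 25 below 0 and 5 below -1. Without both libraries of low albumin the median was -0.30, over the 29 members that passed the filter there. ALDH1A1, which makes retinoic acid from retinal, had 17.7, 174, 222 and 198 CPM, against 303 to 674 CPM (median 612) in high-Z libraries. The log2 fold change of ALDH1A1 was the lowest among Z genes with a symbol and at least 5 CPM in high-Z libraries (-1.88, SE 0.52), and solvent replicate 3 had the least. GRHPR, which clears glyoxylate, had 259, 214, 175 and 214 CPM, against 386 to 559 CPM (median 502) in high-Z libraries (-1.16, SE 0.10). AMACR (-1.15, SE 0.13) and HSD17B4 (-0.93, SE 0.09), peroxisomal enzymes of branched-chain fatty acid and bile acid side-chain oxidation, were also lower in every low-Z library than in every high-Z library. GALT, of galactose breakdown, had 8.75, 12.6, 11.9 and 9.67 CPM, against 18.5 to 28.4 CPM (median 21.7) in high-Z libraries (-1.07, SE 0.12).

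The list also holds receptors. GHR, the growth hormone receptor, had 337, 175, 127 and 170 CPM, against 257 to 374 CPM (median 311) in high-Z libraries (-0.62, SE 0.12). At GHR solvent replicate 3 lay inside the high-Z range and the 3 ethinylestradiol-treated low-Z libraries below it. PRLR, the prolactin receptor, had 9.99, 6.56, 6.96 and 5.58 CPM, against 9.77 to 15.2 CPM (median 12.6) in high-Z libraries (-0.80, SE 0.16), and solvent replicate 3 alone reached the high-Z range. IL6ST, the shared signal transducer of the interleukin-6 family, had a fold change of -0.46 (SE 0.10) and its partner LIFR one of -0.38 (SE 0.11).

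The iron-binding aconitase ACO1 had 449 to 481 CPM in low-Z libraries and 524 to 938 CPM in high-Z libraries, without overlap (-0.59, SE 0.10). Further members below 0 were GDA (-0.85), the complement component C7 (-0.54), ACAA2 (-0.49), DMGDH (-0.47) and PLIN2 (-0.40), each overlapping between the classes. SELENOP, the selenium transport protein, had 1735, 903, 755 and 897 CPM, against 965 to 1299 CPM (median 1106) in high-Z libraries (-0.05, SE 0.14). Solvent replicate 3 was above all high-Z libraries and the other low-Z libraries below all of them, so the value of SELENOP near 0 averages opposite deviations. HMGCS1, an enzyme of sterol synthesis, had 95.1, 137, 317 and 240 CPM, against 73.7 to 367 CPM (median 110) in high-Z libraries (0.58, SE 0.35), and the classes overlapped. STARD4, a Z-placed sterol carrier outside this list, averaged 9.33 ± 2.495 CPM in low-Z libraries (n = 4) and 21.1 ± 5.95 CPM in high-Z libraries (SD, n = 11; -1.17, SE 0.24).

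Besides ALDH1A1, the lowest Z genes under that rule were CZH5orf63 (-1.48), SPINK4 (-1.43), AGXT2 (-1.38), NMRK1 (-1.37), AOPEP (-1.26), C6 (-1.26) and MOCS2 (-1.24). MOCS2, of molybdenum cofactor synthesis, had 41.9, 34.9, 27.2 and 32.8 CPM, against 71.7 to 91.5 CPM (median 80.8) in high-Z libraries. AGXT2, a mitochondrial aminotransferase, had 56.9, 45.7, 46.1 and 32.0 CPM, against 78.5 to 174 CPM (median 121) in high-Z libraries. Both were separated by class. C6, a complement component, was spread over 0.666 to 11.5 CPM in low-Z libraries and 3.45 to 27.9 CPM in high-Z libraries (SE 0.61).

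The highest Z genes with a symbol and at least 5 CPM in high-Z libraries were MAP1B (0.84), LOX (0.76), ELOVL7 (0.72), CDO1 (0.65), PIP5K1B (0.61), CAST (0.60), HMGCS1 (0.58) and F2R (0.46). CAST, which encodes the calpain inhibitor calpastatin, had 19.3, 16.4, 25.1 and 17.8 CPM, against 9.22 to 15.8 CPM (median 12.6) in high-Z libraries. It was above every high-Z library in all 4 low-Z libraries. LOX, a collagen cross-linking enzyme, had 151, 121, 104 and 267 CPM, against 48.5 to 146 CPM (median 93.0), and overlapped. Among Z-placed ribosomal protein genes, RPS6 averaged 592 ± 17.5 CPM in low-Z libraries and 1031 ± 96.1 CPM in high-Z libraries (-0.82, SE 0.08). RPS23 averaged 352 ± 27.0 CPM in low-Z libraries and 680 ± 68.9 CPM in high-Z libraries (-0.94, SE 0.09), but RPL37 averaged 245 ± 17.3 CPM in low-Z libraries and 231 ± 26.2 CPM in high-Z libraries (0.09, SE 0.10; SD, n = 4 and n = 11 for each). The 64 tested ribosomal protein genes not placed on Z had a median of 0.03.

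In a search over all 20308 gene IDs, chosen after values were seen, 2 transcripts were present in every low-Z library and nearly absent from every high-Z library, and 0 showed the converse. The search asked for at least 3 counts in each library of a class and a lowest CPM more than 5 times the highest of the other class. Both transcripts are Z-placed lncRNAs, and neither entered the mean that defined the classes. LOC107306102 had 13, 24, 18 and 24 counts in the low-Z libraries, against 2 counts in all in the high-Z libraries, 9 of which were at 0. LOC107306683 had 21, 30, 25 and 32 counts in the low-Z libraries, against 4 counts in all in the high-Z libraries, 7 of which were at 0. Per sequenced count the ratio was 148 for LOC107306102 (exact 95% interval 39.5 to 1239) and 101 for LOC107306683 (38.3 to 377). These intervals cover counting error only. The search picked both transcripts for a high ratio, so the intervals are no test of it.

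LOC107306102 lies 7 tested genes after DMRT1, the Z-linked gene that directs testis formation in chicken, between SLC1A1 and CDC37L1. In chicken, a female-expressed non-coding RNA, MHM, comes from a Z region next to DMRT1; no identity with LOC107306102 was examined. DMRT1 averaged 7.14 ± 2.12 CPM in low-Z libraries and 9.62 ± 1.79 CPM in high-Z libraries (-0.55, SE 0.16; SD, n = 4 and n = 11). The 13 tested genes centred on LOC107306102, itself included, had a median of 0.06. SLC1A1, a glutamate transporter, averaged 4.998 ± 0.91 CPM in low-Z libraries and 2.29 ± 0.90 CPM in high-Z libraries (1.10, SE 0.27), and VLDLR, a lipoprotein receptor, had a fold change of 0.49 (SE 0.19). The classes overlapped at both: SLC1A1 had 3.71 to 5.81 CPM in low-Z and 1.48 to 4.49 CPM in high-Z libraries. VLDLR had 2.42 to 4.71 CPM in low-Z and 1.61 to 3.32 CPM in high-Z libraries. LOC107306098, next before SLC1A1, had 0.238 to 8.04 CPM in low-Z libraries and 0.141 to 0.821 CPM in high-Z libraries, so the classes overlapped. Values of both signs lay on both sides: SMARCA2 (-0.64), PUM3 (-0.20) and RFX3 (0.21) before LOC107306102, and CDC37L1 (-0.02), AK3 (-1.05), RCL1 (-0.35), JAK2 (-0.17), LOC107306121 (0.06) and CD274 (0.31) after it. Around LOC107306683, which follows MCCC2, the same window had a median of -0.12.

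Among 14037 genes not placed on Z, 22 (0.157%) differed between the classes at an adjusted p under 0.05 by edgeR's quasi-likelihood test. Benjamini-Hochberg adjustment ran over these genes, and 2005 of them had an unadjusted p under 0.05 by the same test. Of the 22, 14 (0.0997%) were higher in low-Z libraries, all autosomal. The 8 lower ones (0.0570%) were 6 autosomal genes, 1 unplaced gene and 1 ID absent from the gene table.

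The count rested on single libraries. Without 33.3 µg/g replicate 1 it was 0, without 3.33 µg/g replicate 4 it was 2, and without both, the libraries with little albumin, it was 1, a gene not among the 22. Without solvent replicate 3 it was 397. It was 10 without solvent replicate 1, 4 without solvent replicate 4, 3 without 3.33 µg/g replicate 1, 41 without replicate 3 and 3 without replicate 5 of that dose, and 9, 10 and 8 without 33.3 µg/g replicates 2, 3 and 5.

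HAUS2, a subunit of the augmin complex that seeds spindle microtubules, rose in low-Z libraries. It had 12.2, 12.2, 12.6 and 13.4 CPM, against 6.45 to 8.44 CPM (median 7.56) in high-Z libraries (log2 fold change 0.74, SE 0.09, adjusted p = 0.00498 by edgeR). All 4 low-Z values lay together and above every high-Z value in each treatment. Leaving out 33.3 µg/g replicate 1 ended the call of HAUS2 (edgeR adjusted p = 0.125), and the log2 fold change was 0.71 without both libraries of low albumin.

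The gene ID 107305852, which the table does not hold, fell. It had 5.23, 5.96, 4.62 and 4.57 CPM, against 8.11 to 11.9 CPM (median 10.6) in high-Z libraries (-1.06, SE 0.11, adjusted p = 0.00266 by edgeR). It was the 1 of the 22 that passed a test against a change of 1.2-fold. It no longer passed once 33.3 µg/g replicate 1 was left out (edgeR adjusted p = 0.0548). Its chromosome was not known here, so it may or may not lie on Z. Genes with IDs near it in number, LOC107305832 and LOC107305866, are placed on Z. Of the 453 tested IDs absent from the gene table, 4.19% lay below -1, against 1.05% of autosomal genes.

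EGLN1, the prolyl hydroxylase that marks hypoxia-inducible factor for degradation, rose, with 77.0, 84.3, 108 and 85.3 CPM, against 46.0 to 64.9 CPM (median 54.99) in high-Z libraries (0.63, SE 0.10, adjusted p = 0.0318 by edgeR). MPI, which links mannose to glycolysis (0.60), DUSP5, a nuclear phosphatase of ERK (1.01), CASTOR2, related to an arginine sensor of mTORC1 (0.85), TMEM51 (0.82), VAMP3, a vesicle fusion protein (0.43), CORO1B, an actin regulator, and FASTK also rose. So did LOC107325623 (0.52), LOC107307728 (0.44) and the lncRNA LOC107310238 (1.07). At DUSP5 solvent replicate 3, with 8.65 CPM, lay inside the high-Z range of 6.11 to 9.57 CPM, and the log2 fold change was 0.14 within solvent, 1.27 within ethinylestradiol and 0.58 without both libraries of low albumin. That of MPI was 0.23 within solvent and 0.37 without both libraries of low albumin. Within solvent LOC107310238 had 0.57, TMEM51 0.53, and VAMP3 0.28. TMEM51 had 21.02, 19.97, 30.7 and 24.2 CPM, against 11.4 to 18.4 CPM (median 13.9) in high-Z libraries. Each of these calls was lost when any of 5 or more libraries was left out singly (edgeR adjusted p of at most 0.246).

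OCSTAMP, which takes part in osteoclast fusion in mice, had 0.238, 2.78, 3.69 and 2.27 CPM, against 0 to 0.480 CPM (median 0.0863) in high-Z libraries (3.51, SE 0.57, adjusted p = 0.0338 by edgeR). TNFRSF6B, a decoy receptor of the tumour necrosis factor family, had 0.523, 3.30, 2.69 and 8.57 CPM, against 0.311 to 1.10 CPM (median 0.615) in high-Z libraries (2.75, SE 0.50, adjusted p = 0.0470 by edgeR). At both genes solvent replicate 3 lay within the range of all high-Z libraries and the 3 ethinylestradiol-treated low-Z libraries above it. At OCSTAMP solvent replicate 3 was above the 4 high-Z solvent libraries (0 to 0.0882 CPM), but all these solvent values lie near the floor. OCSTAMP did not pass the count filter within solvent libraries alone, so no fold change is given there. Over all libraries OCSTAMP passed that filter only because of the 3 treated low-Z libraries where it was high. Its adjusted p is therefore no separate support for a rise. OCSTAMP also failed the stricter filter, 1 CPM in 4 libraries. The call of OCSTAMP was lost on leaving out any of 6 single libraries and that of TNFRSF6B any of 14 (edgeR adjusted p of at most 0.344). For TNFRSF6B the log2 fold change was -0.89 within solvent and 1.72 without both libraries of low albumin.

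Genes that fell included TTPA, the liver protein that loads vitamin E for secretion. TTPA had 27.6, 26.2, 21.5 and 28.3 CPM, against 32.8 to 65.5 CPM (median 54.6) in high-Z libraries (-0.93, SE 0.16, adjusted p = 0.0432 by edgeR). MTARC1, a molybdenum enzyme of the mitochondrial outer membrane, had 258, 271, 208 and 288 CPM, against 338 to 547 CPM (median 413) in high-Z libraries (-0.67, SE 0.10, adjusted p = 0.0318 by edgeR). The classes were apart at TTPA and MTARC1 in every treatment. PPM1L, a phosphatase (-0.53), LDHD, which oxidises D-lactate (-0.49), the unplaced LOC107307704 (-0.70) and LOC107317629 (-2.32) fell as well. The chromosome of LOC107307704 was not known here, so that gene may or may not lie on Z. Of 727 tested unplaced genes, 2.48% lay below -1, against 1.05% of autosomal genes. C8B, a subunit of the complement attack complex, had 24.6, 6.26, 7.50 and 4.98 CPM, against 20.3 to 79.9 CPM (median 45.9) in high-Z libraries (-2.20, SE 0.33, adjusted p = 0.0318 by edgeR). At C8B solvent replicate 3 overlapped treated high-Z libraries but was below all 4 high-Z solvent libraries (44.2 to 79.9 CPM), with a log2 fold change of -1.28 within solvent. That of LOC107317629 was -1.43 within solvent. The call of C8B was lost when 3.33 µg/g replicate 4, 3.33 µg/g replicate 5 or 33.3 µg/g replicate 1 was left out (edgeR adjusted p of at most 0.209). TTPA, MTARC1, PPM1L, LDHD, LOC107307704 and LOC107317629 each lost the call on leaving out any of 5 or more single libraries.

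**Figure D4:**
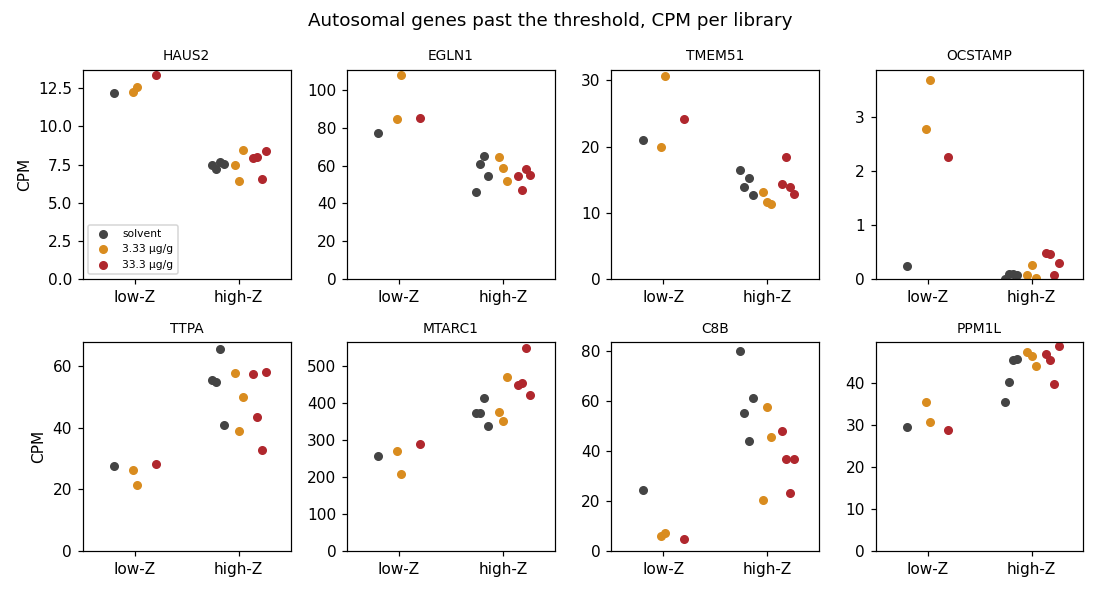
CPM (linear axes from 0) of 8 autosomal genes past the threshold in each library, low-Z libraries left of high-Z libraries, points coloured by treatment. HAUS2, EGLN1, TTPA, MTARC1, TMEM51 and PPM1L are apart by class. At OCSTAMP and C8B solvent replicate 3 overlaps treated high-Z libraries but not the high-Z solvent libraries. The solvent values of OCSTAMP are near the floor.

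No member of the other gene lists passed between the classes (edgeR, 0 of the tested members of each list not placed on Z). Lists are therefore given by their medians, beside 0.02 over all genes not placed on Z. Hepatocyte markers had a median of -0.48, with 13 of 14 below 0, and one of -0.13 without both libraries of low albumin. AMBP, a secreted plasma protein, had 1712, 1204, 791 and 885 CPM, against 1315 to 1883 CPM (median 1563) in high-Z libraries (-0.46, adjusted p = 0.142 by edgeR). Solvent replicate 3 was inside the high-Z range of AMBP and the other low-Z libraries below it.

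Cholangiocyte markers had a median of 0.43, with 5 of 5 above 0, and one of 0.62 without both libraries of low albumin. Their summed level was 167 to 260 CPM in low-Z libraries and 137 to 198 CPM in high-Z libraries, and 3 low-Z libraries were above every high-Z library. Of the 8 listed, 5 were tested, and 0 of those in the counts were at 0 in every library. SPP1, osteopontin, had 8.94, 62.1, 84.3 and 66.9 CPM, against 10.2 to 23.9 CPM (median 11.8) in high-Z libraries (1.87, SE 0.36, adjusted p = 0.0512 by edgeR). SOX9, a transcription factor of bile duct cells and of testis, had 2.996, 10.2, 42.9 and 11.2 CPM, against 1.54 to 4.46 CPM (median 3.17) in high-Z libraries (2.04, SE 0.45, adjusted p = 0.0716 by edgeR). At both genes the 3 ethinylestradiol-treated low-Z libraries were above every high-Z library and solvent replicate 3 was not. Within ethinylestradiol libraries alone, where 136 genes passed, the adjusted p was 0.00337 for SPP1 and 0.0383 for SOX9 (edgeR). Both are the libraries in which the rise was seen, treated low-Z against treated high-Z, so these values add no separate support. The treated low-Z libraries include both libraries of low albumin.

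Macrophage and leukocyte markers had a median of 0.46, with 9 of 10 above 0 and 0.62 without both libraries of low albumin. Their sum was 105 to 225 CPM in low-Z libraries and 66.9 to 148 CPM in high-Z libraries, and CD83, an activation marker, had a fold change of 1.65 (adjusted p = 0.0784 by edgeR). The part of these marker shifts in the non-Z calls was not tested. The endothelial, stellate, erythroid and cell-cycle lists had medians of 0.05, 0.14, -0.13 and 0.08. Without both libraries of low albumin these were 0.12, 0.18, -0.21 and -0.064, so the cell-cycle median turned, with 22 of 28 genes below 0 against 6 of 28 with all libraries.

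Among hormone and metabolic lists, medians are over genes not placed on Z. They were 0.16 for sex determination and gonad genes, -0.08 for sex steroid metabolism, 0.01 for the growth hormone axis, -0.14 for interferon response and 0.01 for cholesterol synthesis. Without both libraries of low albumin they were 0.45, -0.02, -0.06, -0.25 and -0.05, in the same order, so those of the growth hormone axis and cholesterol synthesis turned. The sex determination medians are over unlike sets, 8 genes with all libraries and 9 without both, because the filter was rerun. CISH, a feedback inhibitor induced by growth hormone and cytokine receptors, had 5.18, 8.65, 31.9 and 14.4 CPM, against 2.86 to 6.57 CPM (median 4.62) in high-Z libraries (1.498, SE 0.32, adjusted p = 0.0703 by edgeR). Yolk precursor and oestrogen receptor genes had a median of -0.11, which turned to 0.097 without both libraries of low albumin. The 1 tested gene of the kidney, gonad and adrenal list, SLC12A1, had a fold change of -1.11 (adjusted p = 0.208 by edgeR).

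In birds, oestrogen makes the liver produce yolk and egg-coat proteins, and the treatments allow the response to be set beside Z class. The low-Z arm holds 3 treated libraries and a single solvent library, solvent replicate 3, which the model assumes to vary like the others. Its values therefore compare that library with the treated ones and give no replicated response of the class. In that comparison 141 genes passed (1.0% of 14037), while either dose against the 4 solvent libraries changed 162 (1.15%) in high-Z libraries (edgeR); the counts are not comparable. The interaction of Z class with ethinylestradiol passed for 2 genes (0.0142%; 1873 at an unadjusted p under 0.05), ZP1 and LOC107322221.

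ZP1, an egg-coat glycoprotein made in bird liver under oestrogen, had 364, 152 and 140 CPM in treated low-Z libraries and 45.1 CPM in the solvent one. In high-Z libraries it had 90.2 to 157 CPM under treatment and 1.46 to 3.07 CPM in solvent. The treated classes overlapped, while the low-Z solvent library was far above the 4 high-Z solvent libraries. The fitted log2 difference from solvent was 2.13 in low-Z and 5.67 in high-Z libraries, an interaction of -3.54 (SE 0.45, adjusted p = 0.0159 by edgeR). LOC107322221, an lncRNA, had 1.93, 3.42 and 4.38 CPM in treated low-Z libraries and 39.0 CPM in the solvent one, against 2.85 to 5.73 CPM in treated and 1.73 to 3.93 CPM in solvent high-Z libraries (interaction -4.20, SE 0.52, adjusted p = 0.0159 by edgeR). Here only solvent replicate 3 stood out among the 15 libraries. Both calls ended without solvent replicate 1 (adjusted p = 0.0669 by edgeR), 3.33 µg/g replicate 1 (0.0579) or both libraries of low albumin (0.0865), and that of ZP1 also without 33.3 µg/g replicate 1 (0.0537). They cannot be had without solvent replicate 3.

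The following genes were chosen after their values were seen. LOC107317565 and LOC107319873, which are among the most induced transcripts, had 238 and 195 CPM in solvent replicate 3. In the other 4 solvent libraries they had 1.12 to 16.3 CPM and 0.345 to 13.8 CPM. Under treatment LOC107317565 had 14990 to 23417 CPM in low-Z libraries and 2336 to 20676 CPM in high-Z libraries, so the classes overlapped. The interactions were -4.18 for LOC107317565 (adjusted p = 0.241 by edgeR) and -4.09 for LOC107319873 (adjusted p = 0.267 by edgeR). ESR1, the main oestrogen receptor of liver, had 40.0 CPM in solvent replicate 3, against 14.9 to 25.3 CPM in high-Z solvent libraries, and 18.2 to 20.98 CPM in treated low-Z libraries, against 12.7 to 21.999 CPM in treated high-Z libraries (interaction -0.86, adjusted p = 0.323 by edgeR). APOB, the structural protein of lipoprotein particles, had 7824 CPM in solvent replicate 3, against 6120 to 7573 CPM in high-Z solvent libraries (interaction -0.38, adjusted p = 0.598 by edgeR). With 1 low-Z solvent library, its Z class and any other property of that library cannot be told apart.

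**Figure D5:**
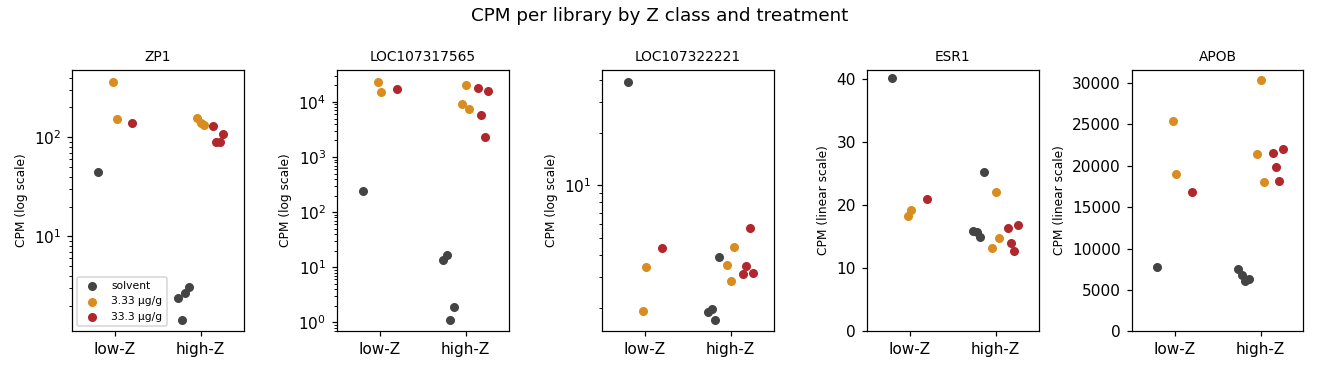
CPM per library of ZP1, LOC107317565 and LOC107322221 (log axes) and of ESR1 and APOB (linear axes from 0), low-Z libraries left of high-Z libraries, points coloured by treatment. The low-Z solvent library is above all 4 high-Z solvent libraries in each panel, at 45.1 against 1.46 to 3.07 CPM for ZP1, while treated libraries of the classes overlap.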

How the data were processed

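The authors quantified the reads with kallisto, per the submitters' processing notes; the version, index and genome build were not stated there (not given in the sources used here). What they deposited were unnormalized kallisto estimated counts (an expected count for each transcript), per the file headers. Its 47418 entries were summed per NCBI gene ID and rounded, giving 20308 IDs, 18900 (93.1%) of which matched the Coturnix japonica 2.1 gene table; gene order is from that table and no coordinates are printed. The 1408 unmatched IDs stayed in the tests.

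edgeR 4.0.16 (R 4.3.3) was run with filterByExpr by Z class, TMM factors and the robust quasi-likelihood F-test on treatment group plus Z class, over 14686 genes. Z genes (649) were fitted but not tested, and two-sided p-values were Benjamini-Hochberg adjusted over the 14037 others, with a threshold of 0.05. A second model added Z class by any ethinylestradiol dose. SE is the absolute log2 fold change over the square root of F. The fit was tested on simulated data.

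The libraries, the 17 gene lists and the rule for naming genes were chosen with earlier results of these data known. Named genes were the 12 largest rises and 12 largest falls past the threshold with at least 1 CPM, the 8 lowest and 8 highest Z genes with a symbol and at least 5 CPM in high-Z libraries, members of both Z lists, and up to 4 members of each other list with the smallest p; not all are described. CORO1B and FASTK, Z-placed ribosomal genes, STARD4, and neighbours of the lncRNAs lie outside the rule and were chosen after their values were seen. Alternatives included other scalings and filters, DESeq2 1.42.0, limma-voom (limma 3.58.1), an erythroid covariate and each library left out. Figures used Python with pandas and matplotlib. Identical library columns numbered 0.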

Additional observations from a re-analysis of the deposited data

Results flagged for a closer look

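The interaction of Z class with ethinylestradiol passed edgeR's quasi-likelihood test for LOC107322221 (-4.20) and ZP1 (-3.54; adjusted p = 0.0159 each). The low-Z solvent arm is 1 library, so these values show solvent replicate 3 apart from the other solvent libraries and no replicated difference in response between the classes.

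Among 129 sets of 4 low-Z values examined, 12 held a library far from the others. The low-Z libraries differ in treatment, solvent replicate 3 being the only untreated one. Some of the genes were also named for their values, so the count cannot be set against chance. Solvent replicate 3 stood apart for C8B (24.6 CPM), CDO1 (177 CPM), LOC107322221 (39.0 CPM), TCF4 (2.71 CPM), SELENOP (1735 CPM) and ESR1 (40.0 CPM), high in each. For CDO1, a cysteine dioxygenase on Z, the other low-Z libraries had 22.8 to 32.0 CPM and high-Z libraries 4.10 to 85.7 CPM. At 3.33 µg/g, replicate 4 was high for CZH5orf63 (4.39 CPM) and low for SPINK4 (1.12 CPM), and replicate 3 was high for IGFALS (33.0 CPM) and the complement gene C1QA (25.1 CPM). Replicate 1 at 33.3 µg/g was high for SMAD7 (13.9 CPM) and IGFBP3 (11.1 CPM). High and low here are against the other low-Z libraries only. Some of these values were ordinary among high-Z libraries. CZH5orf63 lay within their range (2.39 to 9.68 CPM) and IGFALS near their mean of 31.1 ± 12.9 CPM (SD, n = 11). Others were not, such as C1QA, with a high-Z mean of 7.24 ± 1.97 CPM.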

How the results depend on the processing

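The Z median of -0.41 ranged from -0.44 to -0.39 with single libraries left out, and was -0.27 with library totals, which also moved the autosomal median to 0.17, -0.36 without the 2 libraries of low albumin and -0.35 within solvent. Counts of non-Z genes higher and lower (14 and 8 as reported) ranged from 0 to 204 and 0 to 193 with single libraries left out. They were 125 and 14 with library totals, 29 and 18 with a stricter filter, 262 and 271 with DESeq2, 47 and 25 with voom, 85 and 30 without the treatment covariate, 5 and 5 with an erythroid covariate, 111 and 85 at an adjusted p under 0.1 and also when adjusted with Z genes included, 0 and 1 against 1.2-fold, 0 and 1 without low albumin, and 78 and 58 within ethinylestradiol. Higher genes numbered 5 with autosomal TMM factors and 9 without a filter. DESeq2 called all 22. A replicate block gave 2 and 3, with 1 of these 5 genes among the 22, and 0 interaction genes passed under it. Whether replicate numbers pair the libraries was not known (3 of 15 same-number pairs correlated over 0.1). Interaction genes (2 as reported) ranged from 0 to 11 with single libraries left out, and were 6 with library totals, 200 with DESeq2, 1 with voom, 12 at an adjusted p under 0.1 and 0 without low albumin. Among single genes, directions turned for CCNB3 without low albumin (-0.074) and TNFRSF6B within solvent (-0.89), and the list medians that turned stand in the report. Low-Z libraries number 4, and 1 is solvent; causes were not tested.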
